A study of Mus musculus with 12 samples.

Results

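The genes described here were 10 markers of the early stages of the oligodendrocyte (OL) lineage. The list held 7 markers of OL precursor cells (Cspg4, Ptprz1, Pcdh15, Lhfpl3, C1ql1, Matn4 and Neu4) and 3 markers of premyelinating OLs (Gpr17, Bcas1 and Enpp6). They were taken by gene symbol and were 10 of the 56860 named genes in the count table. All 10 had counts in each of the 12 libraries, and all 10 passed the filter on low counts that left 16600 genes for testing.

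RNA-seq was performed on primary OLs of C57BL/6J mice, with 6 libraries from cells given siEgr2 and 6 from cells given a scrambled control (siNC). The siEgr2 reagent interferes with the transcript of Egr2, a zinc-finger transcription factor, and the cells were harvested 48 h after they received it. Per the methods, the cells of both groups came from the cortex of pups at postnatal day 6 to 7, whereas the labels name the medial prefrontal cortex as the tissue. Cells carrying the O4 surface antigen were enriched on magnetic beads, expanded with the growth factor PDGF-AA, and moved to a differentiation medium before transfection, so both groups shared the strain, the enrichment and the culture steps. The reagent is described both as a small interfering RNA and as an interfering plasmid. Nothing states that the libraries of a group came from separate cultures, so the p-values measure the spread between these libraries, which may be technical.

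OL precursors are dividing cells that carry the NG2 proteoglycan and the PDGF receptor alpha on their surface. When they leave the cell cycle they pass through a short premyelinating stage, marked by the receptor Gpr17, by Bcas1 and by the enzyme Enpp6, before they make myelin proteins such as Mbp. Most precursor markers are surface or secreted proteins, and their transcripts decline as the cells mature.

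Total counts were 28682946 to 39383014 in the siNC libraries and 8034251 to 16683677 in the siEgr2 libraries. The ribosomal RNA gene Rn18s-rs5 took 0.142% to 1.05% of the counts in siNC and 10.5% to 16.5% in siEgr2. Depth and this share separated the groups in the same way as the treatment, so they and siEgr2 cannot be told apart as sources of a difference. Levels below are CPM, counts scaled to a library total of 1000000, after adjustment by the trimmed mean of M-values (TMM), and a change is the log2 fold change of siEgr2 against siNC. A gene was called when edgeR's quasi-likelihood test gave an adjusted p (Benjamini-Hochberg over all genes tested) under 0.05 with an absolute log2 fold change over 0.5. Egr2 itself stood between 3.89 and 7.06 CPM in siNC (median 5.19, 119 to 295 counts) and between 2.22 and 4.86 CPM in siEgr2 (median 3.93, 30 to 65 counts). The groups overlapped, with 3 of the 6 siEgr2 libraries under the lowest siNC library. Egr2 had a log2 fold change of -0.51 (SE 0.208), an edgeR quasi-likelihood adjusted p of 0.0981 and a two-sided exact permutation p of 0.0433, so the targeted gene was not called, although it was with scaling by library size only (-0.70, adjusted p = 0.0144 in the same edgeR test).

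The bases just upstream of 4 precursor marker genes are shown because 2 of the genes (Cspg4 and Pcdh15) were called higher and the other 2 held a match to a searched motif. The sequences are RefSeq promoters on GRCm38.p6, from the forward strand, and end just before the transcription start, except that of Cspg4, which stops where its annotated first exon begins. The 250 bases before the start were searched for 7 of the 10 markers, and not for C1ql1, Bcas1 or Gpr17. Searched on both strands were the Egr-type motif GCGNGGGCG and the E-box CAGCTG, which reads the same on both strands. In the 250 bases before the start, 4.697% of 32851 RefSeq promoters held the Egr-type motif and 13.001% held this E-box. Capitals mark a match.
Cspg4, chr9:56864854-56865032: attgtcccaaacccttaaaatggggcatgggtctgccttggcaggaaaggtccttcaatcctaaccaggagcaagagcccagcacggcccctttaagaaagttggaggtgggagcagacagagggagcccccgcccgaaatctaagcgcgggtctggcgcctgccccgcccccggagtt
Pcdh15, chr10:73821617-73821866: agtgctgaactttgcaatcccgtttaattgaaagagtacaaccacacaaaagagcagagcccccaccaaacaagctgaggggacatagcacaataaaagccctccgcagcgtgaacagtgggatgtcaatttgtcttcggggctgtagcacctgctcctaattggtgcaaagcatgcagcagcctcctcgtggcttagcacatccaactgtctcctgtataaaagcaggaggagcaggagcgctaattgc
Ptprz1, chr6:22875252-22875501: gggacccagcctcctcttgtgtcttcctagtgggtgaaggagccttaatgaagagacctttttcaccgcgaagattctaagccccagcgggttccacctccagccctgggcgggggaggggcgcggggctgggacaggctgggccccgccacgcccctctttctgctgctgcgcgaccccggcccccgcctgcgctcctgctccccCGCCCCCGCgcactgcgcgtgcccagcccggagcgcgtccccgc
Lhfpl3, chr5:22745804-22746053: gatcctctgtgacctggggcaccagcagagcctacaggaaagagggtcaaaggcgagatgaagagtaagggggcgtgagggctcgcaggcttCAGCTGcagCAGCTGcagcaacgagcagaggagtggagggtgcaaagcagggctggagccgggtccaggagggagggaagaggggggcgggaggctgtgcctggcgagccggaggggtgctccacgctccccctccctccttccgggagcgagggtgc
Ptprz1 held 1 Egr-type match, which begins 44 bases before the start and lies on the reverse strand. Lhfpl3 held 2 E-boxes, which begin 158 and 149 bases before the start, with 3 bases between them. The windows of Cspg4 and Pcdh15 held neither motif, nor did those of Matn4, Neu4 and Enpp6, which are not shown. This says only that these letters are not in these stretches. The Pcdh15 start used by RefSeq lies within the longer gene that the annotation gives, so this is the upstream stretch of 1 of its transcripts. The GC content of the 250 bases was 60.4% for Cspg4, 50.4% for Pcdh15, 71.6% for Ptprz1 and 67.2% for Lhfpl3. A letter match is a description of the sequence and not of a bound site.

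After siEgr2, the NG2 proteoglycan gene Cspg4 and the protocadherin gene Pcdh15 rose by 1.48-fold and 1.63-fold, and Matn4, a matrix protein gene at low counts, fell to 0.638 of its siNC level. Of the 7 precursor markers, 2 were called higher and 1 lower, whereas 0 of the 3 premyelinating markers were called in either direction by edgeR's quasi-likelihood test. Over all 16600 genes tested, 437 (2.63%) were called higher and 844 (5.08%) lower. With the adjusted p alone, 4 precursor markers were higher (Cspg4, Pcdh15, Ptprz1 and C1ql1), 1 was lower (Matn4), and 1 premyelinating marker (Enpp6) was lower, against 1423 of all genes (8.57%) higher, 1877 (11.3%) lower and 3300 (19.9%) in either direction. Under library size only, the adjusted p alone gave 2 precursor markers higher and 1 lower and 2 premyelinating markers lower, against 3.04% of all genes higher and 32.6% lower. The groups were fully apart, with siEgr2 on the upper side, for 2 markers (Cspg4 and Pcdh15) and for 689 of all genes (4.15%). They were fully apart with siEgr2 on the lower side for 0 markers, against 1162 of all genes (7.00%). The median log2 fold change was 0.38 over the 7 precursor markers, 0.03 over the 3 premyelinating markers and 0.0046 over all genes tested. In bulk RNA, fewer cells of a stage and less RNA per cell cannot be told apart.

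**Figure D1:**
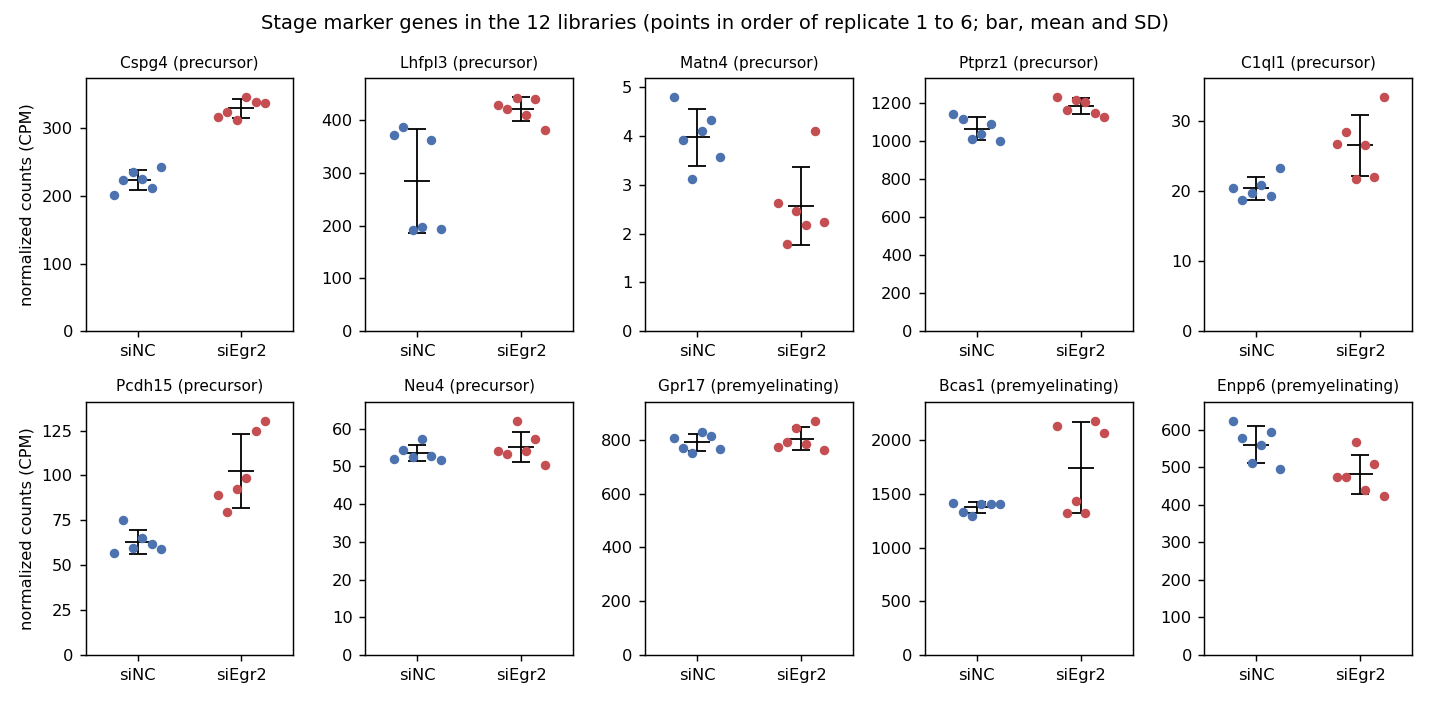
Normalized counts (CPM, linear axes from 0) of the 10 stage markers in the 6 siNC (blue) and 6 siEgr2 (red) libraries, with points from left to right in order of replicate 1 to 6 and a bar for the mean and SD. The groups are apart for Cspg4 and Pcdh15, and Lhfpl3 in siNC and Bcas1 in siEgr2 each fall into 2 levels.

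**Figure D2:**
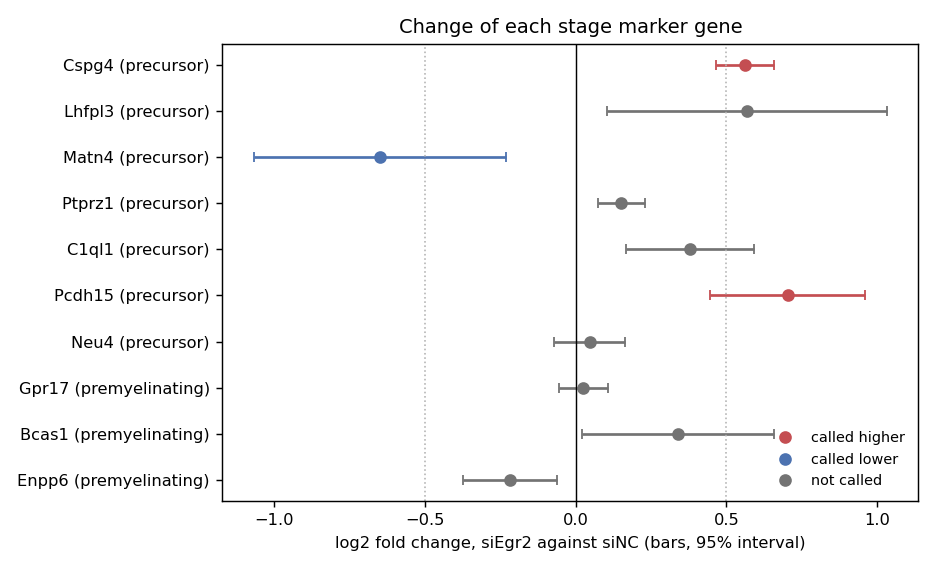
Log2 fold change of siEgr2 against siNC for each stage marker, with 95% intervals and dotted lines at the fold threshold of 0.5. Cspg4 (0.56) and Pcdh15 (0.70) were called higher, Matn4 (-0.65) was called lower, and the intervals of Neu4 and Gpr17 include 0.

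Cspg4 (chr9:56865033-56899870, forward strand, GRCm38) encodes NG2, the chondroitin sulfate proteoglycan by which precursors are commonly recognised. Its siNC libraries stood between 202 and 242 CPM (median 224) and its siEgr2 libraries between 313 and 346 CPM (median 331). The lowest siEgr2 library was thus above the highest siNC library, and the libraries within each group differed by less than the gap between the groups. The log2 fold change was 0.56 (SE 0.0456, 95% interval 0.46 to 0.66), with an edgeR quasi-likelihood adjusted p of 3.85e-07 and an exact permutation p of 0.00216, the smallest that assignments of 12 libraries to equal groups can give. Cspg4 had 2654 or more counts in each library. With scaling by library size only its log2 fold change was 0.38 (edgeR adjusted p = 1.11e-05), which is under the fold threshold.

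Pcdh15 (chr10:73099342-74649737, forward strand) encodes a large cadherin-type adhesion protein, also known from the tip links of hair cells. Its siNC libraries held 56.9 to 75.2 CPM (median 60.6) and its siEgr2 libraries 79.4 to 130 CPM (median 95.6). All 6 siEgr2 libraries were above all 6 siNC libraries, and siEgr2 replicates 5 and 6 (125 and 130 CPM) were the highest. Its log2 fold change of 0.70 (SE 0.119, 95% interval 0.45 to 0.96) had an edgeR quasi-likelihood adjusted p of 0.000948 and an exact permutation p of 0.00216. The spread was wider than for Cspg4, with a coefficient of variation of 20.1% within siEgr2 against 4.12% for Cspg4. Pcdh15 stayed called higher in all 22 other fits, with log2 fold changes of 0.52 to 0.76.

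Ptprz1 (chr6:22875502-23052916, forward strand) encodes a receptor-type tyrosine phosphatase that carries chondroitin sulfate chains and binds pleiotrophin. It stood between 996 and 1138 CPM in siNC (median 1062) and between 1126 and 1229 CPM in siEgr2 (median 1184). In 5 of the 6 siEgr2 libraries it was above the highest siNC library, and siEgr2 replicate 6 overlapped. The difference was small and passed the adjusted p without reaching the fold threshold, with a log2 fold change of 0.15 (SE 0.0372, edgeR quasi-likelihood adjusted p = 0.00822, exact permutation p = 0.00433). With scaling by library size only it was -0.031 (edgeR adjusted p = 0.615), so the direction for Ptprz1 rests on the scaling.

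Lhfpl3 (chr5:22746059-23275597, forward strand) encodes a tetraspan membrane protein. In siNC it split into 2 levels, 191 to 197 CPM in replicates 3, 4 and 6 and 361 to 386 CPM in replicates 1, 2 and 5. In siEgr2 it stood between 381 and 442 CPM (median 425), so that 5 of 6 siEgr2 libraries were above the highest siNC library. The log2 fold change of 0.57 (SE 0.209, 95% interval 0.10 to 1.03) was close to that of Cspg4, but its edgeR quasi-likelihood adjusted p was 0.0857 (exact permutation p = 0.00433). The call was gained in DESeq2 (log2 fold change 0.56, adjusted p = 0.0406) and, in edgeR's quasi-likelihood test, without siNC replicate 2 (0.68, adjusted p = 0.0467).

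The 2 levels of Lhfpl3 were looked at after its values were seen. A step of this kind was taken as a gap over 0.4 on the log2 scale that is more than 1.5 times the spread on either side, with at least 2 libraries on each side. Among genes with a mean log2 CPM over 4, such a step was found in siNC for 215 of 8985 genes (2.39%), Lhfpl3 being the only marker among them. In siEgr2 it was found for 169 of 8959 genes (1.89%), with Bcas1 as the only marker. The same siNC replicates (1, 2 and 5 against 3, 4 and 6) were also apart, by smaller gaps, for Ptprz1 (1089 to 1138 against 996 to 1036 CPM), for Enpp6 (577 to 623 against 496 to 558 CPM) and, in the opposite direction, for Cspg4 (202 to 223 against 226 to 242 CPM). No label separates the libraries in this way, and the cause was not tested. The exons of Lhfpl3 share 567 bases (17.65% of its exon length) with the noncoding gene A930003O13Rik on the opposite strand, which had 486 to 2106 counts. Because the strand setting of the counting is not given in the sources used here, reads over those bases cannot be assigned with certainty.

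C1ql1 (chr11:102939264-102946688, reverse strand) encodes a secreted protein of the C1q family that binds the adhesion receptor Adgrb3. It stood between 18.6 and 23.2 CPM in siNC (median 20.1) and between 21.7 and 33.3 CPM in siEgr2 (median 26.6). In siEgr2, 4 of 6 libraries were above the highest siNC library, and replicates 3 and 5 lay within the siNC range. C1ql1 was past the adjusted p threshold and short of the fold threshold, with a log2 fold change of 0.38 (SE 0.0997, edgeR quasi-likelihood adjusted p = 0.0126, exact permutation p = 0.00866). Its value was 0.19 with library size only and missed the adjusted p as well (0.117 in the same edgeR test).

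Matn4 (chr2:164389393-164405160, reverse strand) encodes a matrilin, an oligomeric protein of the extracellular matrix. It was the least abundant marker, with 97 to 165 counts in each siNC library and 22 to 40 in each siEgr2 library. In CPM these were 3.13 to 4.80 (median 4.0) and 1.79 to 4.10 (median 2.36). Of the siEgr2 libraries, 5 of 6 were below the lowest siNC library, and replicate 5, at 4.10 CPM from 32 counts, lay within the siNC range. Matn4 fell by 0.65 on the log2 scale (SE 0.197, 95% interval -1.07 to -0.23), with an edgeR quasi-likelihood adjusted p of 0.0285 and an exact permutation p of 0.00866. Its call was lost after thinning every library to the smallest total (-0.58, edgeR adjusted p = 0.101). It was also lost without any 1 of 5 libraries (siNC replicates 1 and 5, siEgr2 replicates 2, 4 and 6), with edgeR quasi-likelihood adjusted p of 0.0521 to 0.0678. Its exons share 149 bases (2.88%) with Rbpjl on the opposite strand, which had 4 to 37 counts.

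Neu4 (chr1:94020451-94028334, forward strand) encodes a sialidase, an enzyme that removes sialic acid from glycans. It held 51.6 to 57.3 CPM in siNC (median 52.7) and 50.4 to 62.1 CPM in siEgr2 (median 54.1). The groups overlapped, although the siEgr2 libraries reached both above and below the siNC range. The log2 fold change was 0.05 (SE 0.0555, edgeR quasi-likelihood adjusted p = 0.611), and the 95% interval of -0.07 to 0.16 bounds the difference on this scale. With scaling by library size only the value was -0.13.

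Gpr17 encodes a G protein-coupled receptor that is at its highest in premyelinating OLs and is lost as they mature. The gene lies at chr18:31942997-31949636 on the reverse strand. Levels were 752 to 831 CPM in siNC (median 790) and 762 to 871 CPM in siEgr2 (median 790). The medians were nearly equal and the ranges overlapped. The log2 fold change was 0.03 (SE 0.0381, 95% interval -0.06 to 0.11, edgeR quasi-likelihood adjusted p = 0.70, exact permutation p = 0.535). The sign depended on the scaling, with -0.16 (edgeR adjusted p = 0.0221) when only library size was used. The exons of Gpr17 share 188 bases (3.62%) with Lims2 on the opposite strand, which had 220 to 743 counts.

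Bcas1 (chr2:170346991-170427845, reverse strand) encodes a membrane-associated protein that marks newly formed OLs on the way to myelination. Its siNC libraries lay close together at 1292 to 1418 CPM (median 1405). Its siEgr2 libraries split into 1318 to 1431 CPM in replicates 2, 3 and 4 and 2065 to 2182 CPM in replicates 1, 5 and 6. Hence 4 siEgr2 libraries were above the highest siNC library, replicate 3 among them only by 1431 against 1418 CPM, and replicates 2 and 4 lay within the siNC range. The log2 fold change over all 6 was 0.34 (SE 0.143, 95% interval 0.02 to 0.66), with an edgeR quasi-likelihood adjusted p of 0.130 and an exact permutation p of 0.117. Bcas1 exons share 440 bases (11.66%) with Bcas1os1, which had 65 to 411 counts, and 34 bases (0.9%) with Bcas1os2, both on the opposite strand.

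Enpp6 (chr8:46986887-47096762, forward strand) encodes a phosphodiesterase that acts on choline-containing lipids and is switched on in newly forming OLs. It stood between 496 and 623 CPM in siNC (median 568) and between 423 and 567 CPM in siEgr2 (median 474). In siEgr2, 4 of 6 libraries were below the lowest siNC library, and replicates 3 and 5 overlapped it. Its log2 fold change of -0.22 (SE 0.0723, 95% interval -0.37 to -0.06) had an edgeR quasi-likelihood adjusted p of 0.0483 (exact permutation p = 0.0238), just past that threshold, and did not reach the fold threshold. Enpp6 was the only premyelinating marker with a negative value under TMM scaling. Under 22 other fits its value ranged from -0.40 to -0.18, with adjusted p of 0.00253 to 0.101 in edgeR, DESeq2 or limma, and the adjusted p threshold was missed in 14 of them.

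Levels can be compared between genes only per length, so CPM was divided by the exon length in kb. In siNC the order of mean levels in CPM per kb was Bcas1 (365), Gpr17 (152), Lhfpl3 (88.2), Enpp6 (87.3), Ptprz1 (74.6), Cspg4 (18.7), C1ql1 (13.8), Neu4 (11.5), Pcdh15 (2.64) and Matn4 (0.767). The premyelinating markers Bcas1 and Gpr17 were thus above all precursor markers on this scale. The ranges of neighbours overlapped for Lhfpl3 with Enpp6 and for Enpp6 with Ptprz1, and not for the other neighbours. In siEgr2 the means of Ptprz1 (82.9) and Enpp6 (75.1) changed places, with overlapping ranges (79.1 to 86.2 and 66.0 to 88.5 CPM per kb). Cspg4 reached 27.6 CPM per kb and Pcdh15 4.31 CPM per kb, which left their places in the order as they were. The level of Pcdh15 is set against a total exon length of 23.773 kb, the longest of the 10 genes, and transcripts that use fewer exons would make it too low.

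**Figure D3:**
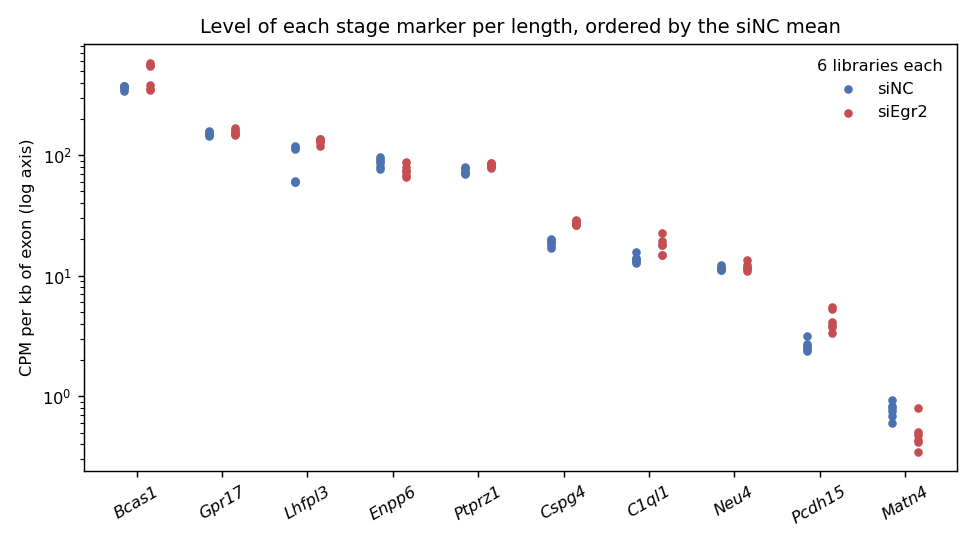
Level of each stage marker in CPM per kb of exon (log axis), ordered by the siNC mean, with 6 siNC (blue) and 6 siEgr2 (red) libraries per gene. The levels span from 365 for Bcas1 to 0.767 for Matn4 in siNC, and Cspg4 and Pcdh15 lie higher in every siEgr2 library.

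Counts of 2 genes in the same library can be compared without any scaling between libraries, and this was done for pairs chosen after the values were seen, with no test. For every 100 counts of Gpr17, the siNC libraries held 24.9 to 31.6 counts of Cspg4 (median 28.02) and the siEgr2 libraries 37.0 to 44.3 (median 41.0). The corresponding ratio for Pcdh15 was 7.03 to 9.74 (median 7.74) in siNC and 10.02 to 17.1 (median 12.03) in siEgr2. Both precursor markers were therefore higher relative to Gpr17 in each siEgr2 library than in any siNC library. The groups were also apart when Enpp6 was the reference, with 32.3 to 48.9 against 55.1 to 79.8 counts of Cspg4 per 100 counts of Enpp6. They overlapped when Bcas1 was the reference, with 14.2 to 18.2 counts of Cspg4 per 100 counts of Bcas1 in siNC and 14.8 to 26.3 in siEgr2, and 4.01 to 5.63 against 4.17 to 7.498 counts of Pcdh15. For Neu4 the ratio to Gpr17 was 6.44 to 7.05 in siNC and 6.58 to 7.34 in siEgr2, and the ratios of Ptprz1 and of Enpp6 to Gpr17 overlapped between groups as well. Set against Pdgfra, the precursor receptor for PDGF, neither marker stood apart, with 38.6 to 49.9 counts of Cspg4 per 100 counts of Pdgfra in siNC and 38.4 to 45.9 in siEgr2. The ratio of Pcdh15 to Pdgfra overlapped too (10.9 to 13.6 and 10.5 to 17.7 per 100 counts).

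**Figure D4:**
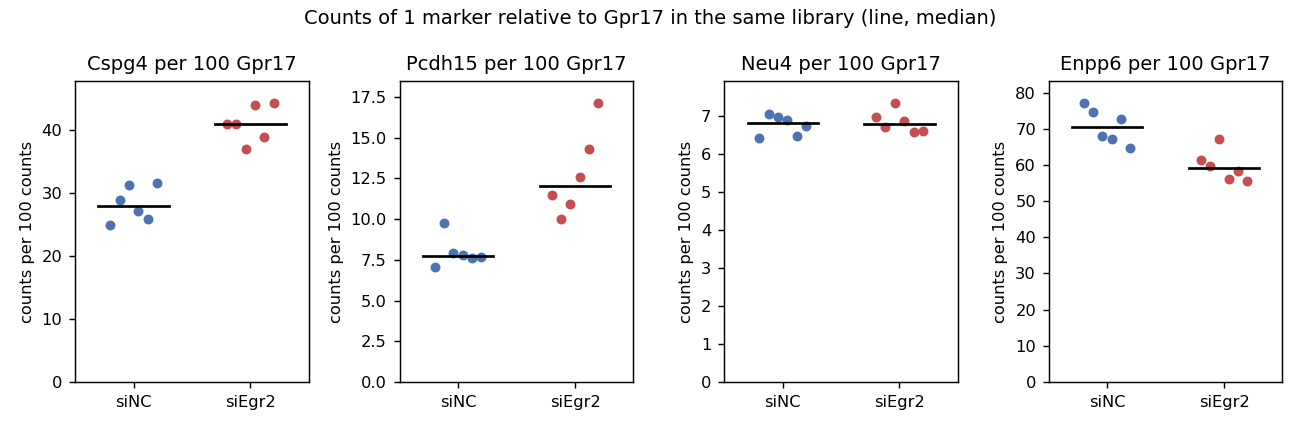
Counts of 4 stage markers for every 100 counts of Gpr17 in the same library (linear axes from 0), with 6 siNC (blue) and 6 siEgr2 (red) libraries and a line at the median. The groups are apart for Cspg4 and Pcdh15 and overlap for Neu4 and Enpp6.

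Further genes of each stage were taken from a list of 15 precursor, 15 premyelinating and 12 myelinating genes. Of the precursor genes, 14 were tested (Susd5 was too low), 2 were called higher and 0 lower, beside the 2.63% and 5.08% of all genes. The 2 were Pdgfra and Rlbp1, a retinoid-binding protein. Pdgfra rose from 522 ± 33.9 to 767 ± 26.9 CPM (SD, n = 6 each, log2 fold change 0.56, SE 0.0416, edgeR quasi-likelihood adjusted p = 1.65e-07), with no overlap. Rlbp1 rose from 31.0 ± 3.15 to 46.4 ± 4.61 CPM (log2 fold change 0.58, SE 0.0806, adjusted p = 7.93e-05 in the same edgeR test). The log2 fold changes of Pdgfra and Cspg4 were 0.56 each.

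By the adjusted p alone, 10 of the 14 further precursor genes were higher and 0 lower, and 9 of them were fully apart between the groups, against 8.57% and 4.15% of all genes. Among the 10 were the transcription factors Olig2 (0.28) and Sox6 (0.25), the calcium channel subunit Cacng4 (0.37) and the proteoglycan Cspg5 (0.26), named after their log2 fold changes were seen. Emid1, at 1.35 CPM or less on average, had a log2 fold change of -1.02 that was not called (edgeR quasi-likelihood adjusted p = 0.0731). The median log2 fold change of the 14 was 0.29. By the adjusted p on library size only, 6 of the 14 were higher and 1 was lower, against 3.04% and 32.6% of all genes. With scaling by library size only, 10 of the 14 and 4 of the 7 precursor markers were above 0, with medians of 0.11 and 0.19, and Pdgfra (0.37) and Rlbp1 (0.40) were no longer past the fold threshold.

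Of the 15 further premyelinating genes, 1 was called higher and 0 lower (2.63% and 5.08% of all genes), and their median log2 fold change was -0.09. The 1 gene was Lims2, an adaptor protein of cell adhesion, which rose from 18.5 ± 3.28 to 27.4 ± 2.45 CPM (log2 fold change 0.57, SE 0.112, edgeR quasi-likelihood adjusted p = 0.00161) and whose exons overlap those of Gpr17. The call of Lims2 was lost with library size only (0.39) and without siNC replicate 6. With the adjusted p alone, Nkx2-2 (0.17) and Sirt2 (0.37) were also higher and Tns3 (-0.21) was lower, which made 3 higher and 1 lower of 15, against 8.57% and 11.3% of all genes. The kinase Fyn (-0.03) and the transcription factor Tcf7l2 (-0.09), both of use in premyelinating OLs, did not pass. In both the 3 markers and this list, values lay on both sides of 0. On library size only, 2 of the 15 genes were higher and 9 lower by the adjusted p, against 3.04% and 32.6% of all genes, with a median of -0.27.

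Of the 12 myelinating genes, 0 were called in either direction by edgeR's quasi-likelihood test, beside 2.63% and 5.08% of all genes. All 12 had a log2 fold change under 0, with a median of -0.15, whereas 8449 of the 16600 genes were above 0. By the adjusted p alone 4 were lower, against 11.3% of all genes, among them Mbp (-0.28), Opalin (-0.26) and Myrf (-0.19), named after their values were seen. Mbp, the myelin basic protein gene, stood at 1830 ± 134 CPM in siNC and 1510 ± 53.0 CPM in siEgr2 (SD, n = 6 each), and the groups did not overlap. On library size only, 11 of the 12 were lower by the adjusted p, against 32.6% of all genes, with a median of -0.33.

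**Figure D5:**
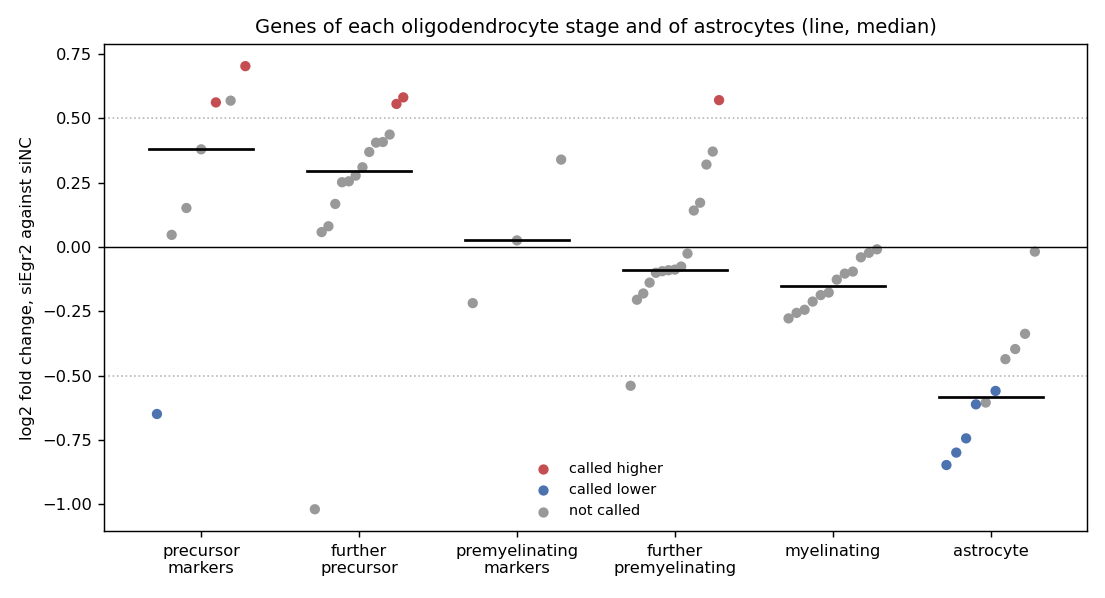
Log2 fold change of siEgr2 against siNC for each tested gene of 6 lists, with called genes in red (higher) or blue (lower), others in gray, a line at the median and dotted lines at the fold threshold of 0.5. With TMM scaling, precursor genes lie mostly above 0 (with library size only, 4 of 7 markers and 10 of 14 further genes do), premyelinating genes on both sides of it, and all myelinating and astrocyte genes below it.

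Partners and relatives of the 10 markers were looked at in a list of 30 genes, of which 28 were in the table and 21 were tested. In this list 0 were called higher and 2 lower, beside 2.63% and 5.08% of all genes, and the median log2 fold change was -0.01. With library size only, 3 were called lower, against 10.5% of all genes. Tnc, the matrix protein tenascin-C and a ligand of Ptprz1, fell from 185 ± 40.8 to 74.5 ± 10.8 CPM (SD, n = 6 each, log2 fold change -1.31, SE 0.153, edgeR quasi-likelihood adjusted p = 9.67e-05), with no overlap. Enpp1, an ectonucleotidase related to Enpp6, fell from 24.6 ± 7.06 to 14.1 ± 2.41 CPM (log2 fold change -0.81, SE 0.179, adjusted p = 0.00520 in the same edgeR test). Other binding partners of Ptprz1 went separate ways. Contactin 1 (Cntn1) had a log2 fold change of 0.35 and the adhesion protein Nrcam one of -0.29, both past the adjusted p, and the ligands pleiotrophin (Ptn, 0.11), midkine (Mdk, -0.13) and tenascin-R (Tnr, -0.06) did not pass.

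The receptor of C1ql1, Adgrb3, had a log2 fold change of 0.09 and did not pass, its relative C1ql3 passed the adjusted p at 0.29, and C1ql2 at 0.76 did not pass at under 1 CPM. Matn2, a relative of Matn4, was lower at -0.41 and past the adjusted p, and Matn1 was at -0.08. Among relatives of Neu4, Neu1 was at -0.06 and Neu3 at 0.38 without passing, and Neu2 had no count in any library. The Lhfpl3 relatives Lhfpl2 (-0.00091) and Lhfpl4 (0.09) did not pass, and Lhfpl1 and Lhfpl5 had no count. The other Enpp genes tested (Enpp2 to Enpp5) had log2 fold changes of -0.30 to 0.10 without passing, so Enpp1 was the only relative of Enpp6 that was called. The cysteinyl leukotriene receptors Cysltr1 and Cysltr2, related to Gpr17, had no count in any library. Grip1, a protein that binds the tail of NG2, was at -0.01.

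Markers of other cell types were counted in the same libraries, since the cultures could hold such cells. Of 10 astrocyte markers, 5 were called lower (Gfap, Aqp4, Aldh1l1, Slc1a2 and Slc1a3) and 0 higher, with a median log2 fold change of -0.58, against 5.08% of all genes called lower. On library size only, 8 of the 10 were called lower, against 10.5% of all genes. Their summed level was 8247 to 8949 CPM in siNC and 5295 to 5978 CPM in siEgr2, so the astrocyte sum separated the groups in the direction opposite to Cspg4 and Pcdh15. Of 10 pericyte and fibroblast markers, 8 were tested and 3 were called lower (Pdgfrb, Rgs5 and Anpep), with sums of 819 to 1369 and 841 to 1036 CPM that overlapped. Of the neuronal markers 8 of 10 were tested and 1 was called lower (Stmn2). Their sums, 157 to 178 CPM in siNC and 135 to 154 CPM in siEgr2, did not overlap either. Of the endothelial markers 4 of 8 were tested and 1 was called lower (Flt1), with sums of 28.7 to 36.4 and 28.1 to 38.7 CPM and no count for the defining marker Cldn5. Of the microglial markers 4 of 10 were tested and 0 were called, with sums of 24.6 to 29.4 and 21.2 to 31.4 CPM and no count for Aif1 or Itgam. The part of other cells in the results on the stage markers was not tested.

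The likeness of other genes to each marker was measured as Pearson's r of log2 (CPM + 0.5) over the 12 libraries after the mean of each group was taken out, among tested genes whose mean log2 CPM reached 2. These values are descriptions with no test, since the points share the libraries, their depth and their scaling. Lhfpl3 in siNC and Bcas1 in siEgr2 each fell into 2 levels, so a gene split by the same libraries would reach a high r with them. The highest r for Cspg4 was with the clock gene Per1 (0.944), followed by Plxna1 and Galnt2 (both 0.900). Pcdh15 was most like Zfpm2 (0.917), Gm36995 (0.883) and Mef2d (0.881), and Ptprz1 was most like Cbx3 (0.966), Tmx3 (0.959) and Gpm6a (0.956). Lhfpl3 was most like Tspan14 (0.984), Id2 (0.980) and the mitochondrial gene mt-Atp8 (0.978). The nearest genes were Gtf2ird1 (0.920), Macrod1 (0.918) and Gpr37 (0.909) for C1ql1, and Zfp458 (0.914), Ergic3 (0.901) and B3galt2 (0.886) for Matn4. Among the 3 nearest to Neu4 were Snx14 (0.932) and Rangrf (0.925). Among the 3 nearest to Gpr17 were Cib2 (0.925) and Slc14a1 (0.920), and the nearest to Bcas1 were Ogg1 (0.926), Trp53bp1 (0.919) and Dleu2 (0.908). Enpp6 was most like Abca9 (0.936), its own relative Enpp2 (0.930) and Cfap418 (0.927). The markers themselves were left out of the genes compared here.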

How the data were processed

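RNA-seq was measured in 12 libraries, 6 siNC and 6 siEgr2, grouped by their titles. Raw counts were deposited by the authors, 1 value per gene symbol and library and not normalized, from reads of 50 bp. The submitters' processing notes name the build mm10, and the aligner, the counting program and its strand setting are not given in the sources used here. The 1 entry without a gene name held no counts and was left out. The counts were tested with edgeR (version 4.0.16) under R (version 4.3.3), with limma 3.58.1 for another fit. The filter on low counts was filterByExpr and the scaling TMM, and the quasi-likelihood test was robust, with Benjamini-Hochberg adjustment over the 16600 genes tested. Two-sided exact permutation tests ran over all assignments of the libraries on log2 (CPM + 0.5). The thresholds (adjusted p under 0.05, absolute log2 fold change over 0.5) are those of the study, which names no test. The scripts were tested on simulated data. Other fits (scaling, filters, DESeq2 1.42.0, limma-voom, replicate block, thinning, structural RNA left out, each library left out) are given under the processing dependence. The markers and lists were chosen with earlier results of these data known. The genes named are the 10 markers, Egr2 and Pdgfra, called genes of the lists, tested partners and relatives, and the 3 genes most like each marker, a few of which are not reported here. Other names were chosen after their values were seen. Gene coordinates are from GENCODE M21 on GRCm38, and promoters from RefSeq on GRCm38.p6. No library copied another. No labels give a batch. Among the markers Matn4 had the fewest counts (22 to 165 per library) and so the largest counting error.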

Additional observations from a re-analysis of the deposited data

Results flagged for a closer look

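Matn4, the matrilin gene, stood at 4.10 CPM (32 counts) in siEgr2 replicate 5, and the other 5 siEgr2 libraries lay between 1.79 and 2.62 CPM. The gap of this library to the nearest other, divided by the range of the group, was 0.640, above the 95% critical value for 6 samples. It was the only such case in the 20 groups of 6 values looked at (10 markers in 2 groups), and chance alone gives about 1 in 20.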

How the results depend on the processing

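Of the 10 markers, Pcdh15, C1ql1, Bcas1 and Enpp6 kept their direction and, by both thresholds together, their call in all 22 other fits. By the adjusted p alone C1ql1 was lost in 1 (library size only, 0.117), Bcas1 was gained in 1 (DESeq2, 0.0395) and Enpp6 was lost in 14. The counts of called genes moved mostly with the fold threshold. Without it, 5 precursor markers, 1 premyelinating marker, 10 further precursor genes, 4 further premyelinating genes and 4 myelinating genes were called, against 3, 0, 2, 1 and 0 with it, while the share of all genes called went from 7.72% to 19.9%. At a log2 fold change over 1, 0 genes of the precursor markers and of both further lists were called, against 2.25% of all genes. With scaling by library size only, the median over all genes moved from 0.0046 to -0.18, and calls went from 1281 (34.1% higher) to 1974 (12.01% higher). In DESeq2, 1896 genes were called (46.0% higher). Under library size only, 1 further precursor gene (Emid1, lower) and 0 further premyelinating genes were called. The same setting turned the sign of Ptprz1 (-0.031), Neu4 (-0.13) and Gpr17 (-0.16). Gpr17 was also turned by fitting all genes with a count (-0.018) and by leaving out siEgr2 replicate 5 (-0.00094). With each library left out in turn, 2 to 4 precursor markers, 0 premyelinating markers, 2 to 3 further precursor genes, 0 to 1 further premyelinating genes and 0 myelinating genes were called, the 0 for the further premyelinating genes being without siNC replicate 6, and 1114 to 1339 of all genes (6.91% to 7.96% of those tested) were called. The causes were not tested.

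Replicate numbers are shared by the groups. The deviations of same-numbered libraries from their group means correlated at -0.059 to 0.041. Of the 12 libraries, 4 correlated best with their own number in the other group. These values do not decide whether the numbers pair the libraries. The replicate block changed the count of called genes from 1281 to 1124 of 16600 and left 3 precursor markers, 0 premyelinating markers, 2 further precursor genes, 1 further premyelinating gene and 0 myelinating genes called.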

Other observations

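Among the 45 pairs of markers, Pearson's r of log2 (CPM + 0.5) over the 12 libraries, with the mean of each group taken out, ranged from -0.80 for Cspg4 with Ptprz1 to 0.83 for Lhfpl3 with Ptprz1, with a median of 0.08. The levels of Cspg4, Ptprz1, Lhfpl3 and Enpp6 were each split by the same siNC replicates (1, 2 and 5 against 3, 4 and 6). The premyelinating markers Gpr17 and Enpp6 had an r of 0.75, and the precursor marker Neu4 had an r of 0.73 with Gpr17 and 0.69 with Enpp6. These are descriptions over libraries that share their depth and scaling, and no test was made.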
